A study of Mus musculus with 24 samples.

Results

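Fah, Me3, Eed, Prcp, Thrsp, Kctd14 and Myo7a are 7 genes that lie in this order along one stretch of mouse chromosome 7. They were selected on their array intensities, chosen by a difference between high and low freezing animals in both brain regions studied and by their nearness on the chromosome. All probe sets annotated with exactly 1 of these symbols were taken, which gave 16 of the 45101 probe sets on the array. Of the 16, 10 passed a filter that left out the dimmest 40% of probe sets, and each gene kept at least 1. The choice used the freezing differences, so those are described below with no p-value, and counts of limma calls among the 10 are given for them only beside the share called over the whole array, as no evidence of a difference. The comparison of the regions was not used in the choice and is tested.

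The arrays measured RNA of dissected mouse brain from animals bred from a C57BL/6J by A/J cross and selected on contextual fear conditioning. In contextual fear conditioning a mouse that was shocked in a chamber later freezes when returned to it. There were 4 groups of 6 Affymetrix arrays, each array a separate sample: high freezing amygdala, low freezing amygdala, high freezing hippocampus and low freezing hippocampus. All groups share the cross, and the labels used here state neither age nor sex, nor whether 1 or several animals gave an array's RNA, so the p-values measure only the spread between these arrays, which may be technical.

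The genes do not form a pathway. What they have in common is their location, and in animals descended from a cross, alleles of neighbouring genes tend to be inherited together. Fah encodes the last enzyme of tyrosine breakdown, Me3 a mitochondrial malic enzyme that makes pyruvate and NADPH from malate, and Thrsp a thyroid hormone-responsive regulator of fatty acid synthesis. Eed is a core subunit of Polycomb repressive complex 2, which methylates histone H3 and keeps genes silent. Prcp encodes a lysosomal carboxypeptidase that trims residues after proline from angiotensin and melanocortin peptides. Kctd14 encodes a protein of a family with a potassium channel tetramerisation domain, and Myo7a an unconventional myosin known from inner ear hair cells and retina, whose loss causes deafness.

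Promoter windows from RefSeq (GRCm38.p6), from 250 bases before to 50 bases after a gene start, were available for 6 of the 7 genes; Kctd14 is named only. They were searched on both strands for 4 short motifs: the GC box GGGCGG, held by 35.7% of all 32851 windows of this length, the CCAAT box CCAAT (37.4%), the TATA box TATAAA (13.6%) and the E box CACGTG (7.15%). The 4 windows printed are those of the genes whose high and low freezing arrays did not overlap in 1 of the regions (described below), and capitals mark the motif matches, none of which overlap. Fah lies on the minus strand with its window at chr7:84605893-84606192, Prcp on the plus strand at chr7:92875003-92875302, Thrsp on the minus strand at chr7:97417501-97417800 and Myo7a on the minus strand at chr7:98119444-98119743.
Fah: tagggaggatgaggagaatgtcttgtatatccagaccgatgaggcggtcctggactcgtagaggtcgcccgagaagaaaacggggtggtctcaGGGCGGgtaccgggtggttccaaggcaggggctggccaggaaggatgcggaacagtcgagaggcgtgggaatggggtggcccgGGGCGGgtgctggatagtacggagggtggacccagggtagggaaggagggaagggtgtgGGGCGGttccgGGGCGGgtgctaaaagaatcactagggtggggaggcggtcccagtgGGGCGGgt
Prcp: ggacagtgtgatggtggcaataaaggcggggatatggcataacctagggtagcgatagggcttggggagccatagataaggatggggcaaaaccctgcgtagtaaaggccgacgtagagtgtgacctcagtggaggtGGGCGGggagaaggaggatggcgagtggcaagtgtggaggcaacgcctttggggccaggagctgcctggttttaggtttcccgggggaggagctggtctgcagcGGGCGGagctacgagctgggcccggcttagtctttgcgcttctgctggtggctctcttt
Thrsp: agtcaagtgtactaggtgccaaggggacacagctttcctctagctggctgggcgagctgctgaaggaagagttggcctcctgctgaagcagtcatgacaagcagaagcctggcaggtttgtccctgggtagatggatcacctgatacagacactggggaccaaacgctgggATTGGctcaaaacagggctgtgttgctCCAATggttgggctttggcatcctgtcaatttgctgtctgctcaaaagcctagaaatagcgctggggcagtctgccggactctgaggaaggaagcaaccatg
Myo7a: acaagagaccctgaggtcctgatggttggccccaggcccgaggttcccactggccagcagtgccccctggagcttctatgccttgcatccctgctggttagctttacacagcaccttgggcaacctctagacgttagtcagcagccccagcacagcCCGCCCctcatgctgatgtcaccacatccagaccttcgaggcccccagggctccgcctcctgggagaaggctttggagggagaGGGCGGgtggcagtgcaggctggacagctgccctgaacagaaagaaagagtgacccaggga
The Fah window held 5 GC boxes, and those of Prcp and Myo7a 2 each. Thrsp held 2 CCAAT boxes and no GC box. Eed held 1 CCAAT box, while the windows of Me3 and of a further Myo7a start had no match, and TATA and E box letters were in none of the 7 windows. The dinucleotide CG occurred 19 times in the Fah window, 17 times in that of Eed, 15 in that of Me3 and 14 in that of Prcp. In the Thrsp window it occurred 4 times and in each Myo7a window 6 times, and the median over all windows was 7. GC boxes were found at Fah, which was lower in high freezing animals. They were also found at Prcp and at 1 of the 2 Myo7a windows, genes that were higher. Whether these motifs have a part in the freezing differences was not tested.

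Array medians lay between 36.7 and 43.4 intensity units, and were between 41.3 and 43.4 in high freezing and between 39.5 and 43.0 in low freezing amygdala arrays. In the hippocampus they were between 37.5 and 41.5 in the high and between 36.7 and 38.7 in the low group. Arrays of 1 group correlated between 0.972 and 0.981 across probe sets, and no 2 arrays held identical values. Of the marker lists, the 6 markers of central amygdala and striatum summed to between 4911 and 8542 units in amygdala arrays and between 448 and 555 in hippocampus arrays. The sum of the 5 markers of the basolateral amygdala went the other way, with 434 to 1147 units in amygdala and 2200 to 2912 in hippocampus arrays. Neurod6, Nr4a2 and Rspo2 were lower in the amygdala, Lypd1 had means of 371 and 315 units in the high and low freezing amygdala and 355 and 321 in the high and low freezing hippocampus, and Otof was higher, with 108 and 104 units against 27.9 and 23.6. The 4 markers of thalamus and hypothalamus summed to between 351 and 1682 units in amygdala arrays and between 78.3 and 157 in hippocampus arrays. Of these Hcrt was similar in both, and Avp, Pmch and Tcf7l2 were higher in the amygdala. The first list thus set the amygdala arrays apart from the hippocampus arrays, but does not tell amygdala from striatum. In the second list Otof alone was clearly higher. The RNA comes from mixed tissue, in which fewer cells of a type and less RNA per cell cannot be told apart.

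In both regions 3 genes were higher in high freezing animals (Prcp, Kctd14 and Myo7a) and 4 were lower (Fah, Me3, Eed and Thrsp). All 10 probe sets tested had the same direction in the amygdala as in the hippocampus, 5 higher and 5 lower, a pattern that the choice of genes partly fixes. Differences are given on the scale log2(intensity + 16), where 1 is a doubling of that sum, so that they understate the change of dim probe sets. All folds given, for regions as for freezing groups, are folds of that sum and not of intensity. At an adjusted p of 0.05, limma called 3 of the 10 in the amygdala, against 0.0555% of all 27022 probe sets. These were 1 higher, at Prcp, where 0.037% of all were called higher, and 2 lower, at Fah and Thrsp, where 0.0185% were. In the hippocampus it called 1 of the 10, at Myo7a, against 0.0518% (0.0444% higher and 0.0074% lower). Over all probe sets these calls were 10 higher and 5 lower in the amygdala and 12 and 2 in the hippocampus, but 8 and 14, and 7 and 8, with arrays centred on their median. No member stood apart without overlap in both regions, as 0.0148% of all probe sets did. These contrasts chose the genes, so nothing is read from the counts.

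**Figure D1:**
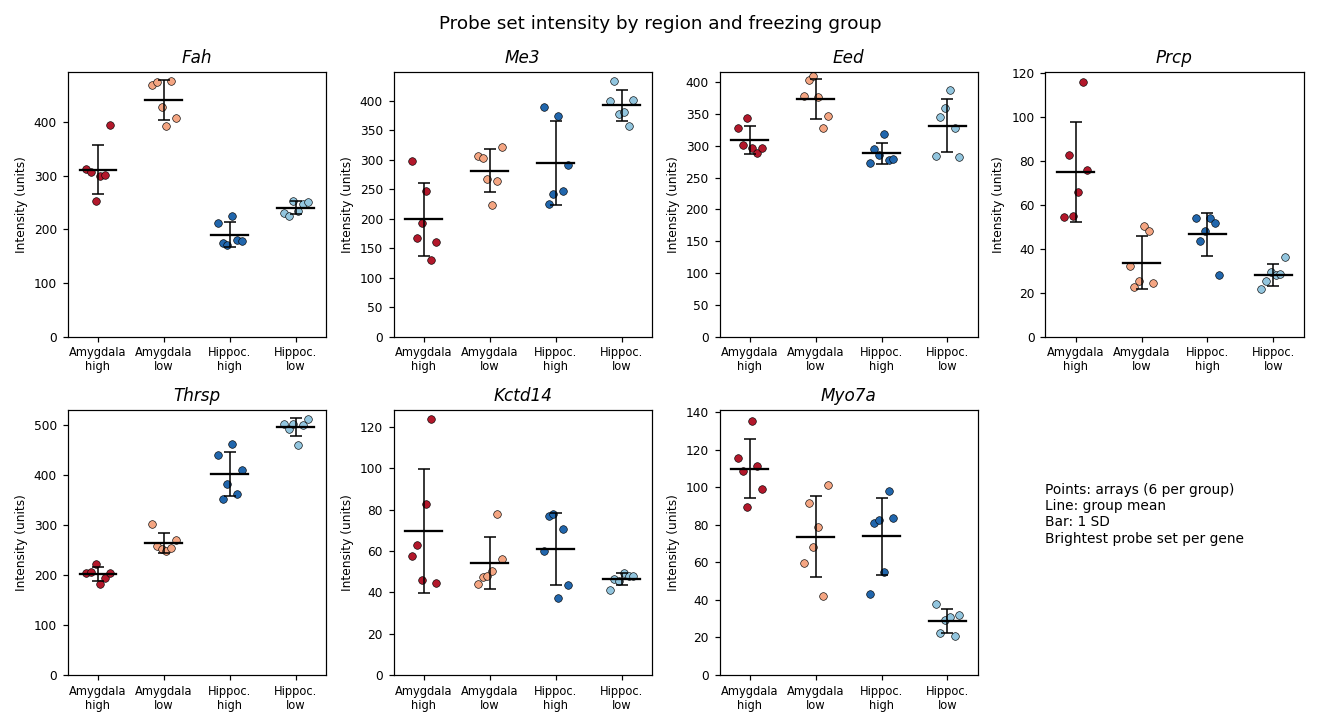
Intensity (units, linear axis from 0) of the brightest probe set of each gene in the 4 groups; points are arrays, 6 per group, lines are means and bars 1 SD. Prcp and Myo7a sit higher in the high freezing groups, with Prcp at 74.8 and 33.7 units in the high and low freezing amygdala, while Fah and Thrsp sit lower, with Fah at 311 and 442 units.

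Myo7a, the myosin, had the largest hippocampal difference of the 7 genes. In the high freezing hippocampus its probe set had a lowest value of 43.0, a median of 81.9 and a highest of 98.0 intensity units, against 20.6, 30.1 and 38.0 in the low freezing hippocampus. The groups did not overlap, which held for 0.818% of all probe sets in this region, 0.451% higher and 0.366% lower. The log2 difference was 0.98 ± 0.16 (SE, n = 6 each), or 1.97-fold. In the high freezing amygdala it ranged from 89.3 over a median of 110.1 to 135 units, against 41.9, 73.6 and 101 in the low freezing amygdala. There the groups overlapped through high arrays 9 and 12, and the log2 difference was 0.52 ± 0.16, or 1.44-fold. The high freezing hippocampus and the low freezing amygdala averaged 73.9 ± 20.6 and 73.5 ± 21.6 units (SD, n = 6 each), a gap far below either spread.

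Prcp, the lysosomal carboxypeptidase, had the largest amygdalar difference of the 7. Its brightest probe set ran from 54.4 over a median of 70.7 to 116 units in the high freezing amygdala, against 22.6, 28.7 and 50.1 in the low freezing amygdala. A further probe set of Prcp was dimmer and ran from 36.9 over 45.6 to 72.1 units in the high freezing amygdala, against 6.48, 21.9 and 33.6 in the low. At both probe sets every high array stood above every low array, which was so for 0.555% of all probe sets in the amygdala (0.329% higher and 0.226% lower), and the log2 differences were 0.87 ± 0.16 and 0.84 ± 0.18.
In the hippocampus the brightest probe set ran from 28 over 49.9 to 54.0 units in high freezing animals, against 21.6, 28.2 and 36.3 in low freezing animals. The other had 23.95, 43.5 and 58.1 units in the high group and 15.0, 24.9 and 27.8 in the low group. The groups overlapped at each, through array 12 of the high group at the first and array 7 at the second, and the differences were 0.49 ± 0.16 and 0.57 ± 0.18. The 2 other probe sets of Prcp, left out as dim, showed no such split. They averaged 21.1 ± 10.4 and 11.3 ± 8.69 units in the high freezing amygdala, against 27.0 ± 11.3 and 9.30 ± 6.70 in the low (SD, n = 6 each).

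Kctd14 was higher in high freezing animals at its kept probe sets, by amounts that differed between them. The brighter one had 44.5, 60.2 and 124 units as lowest, median and highest value in the high freezing amygdala, against 43.98, 49.3 and 78.1 in the low freezing amygdala. In the hippocampus it had 37.4, 65.3 and 78.0 units in the high group and 41.2, 47.1 and 49.3 in the low group. The groups overlapped in both regions, and in the hippocampus 2 of the 6 high arrays, 10 and 12, were below the median of the low group. The log2 differences were 0.24 ± 0.17 in the amygdala and 0.27 ± 0.17 in the hippocampus. The amygdala value was 0.086 without high array 11, which had 124 units.
The other kept probe set had 32.9, 44.8 and 57.7 units in the high freezing amygdala, against 20.98, 29.9 and 39.7 in the low freezing amygdala, with high arrays 7 and 8 inside the low range. It had 34.8, 48.0 and 72.6 units in the high freezing hippocampus, against 19.2, 25.8 and 35.9 in the low freezing hippocampus, where only the lowest high array lay below the highest low array. Its log2 differences were 0.43 ± 0.15 in the amygdala and 0.65 ± 0.15 in the hippocampus. Its remaining probe sets were dim. One averaged 23.8 ± 7.07 units in high freezing and 14.4 ± 5.32 in low freezing hippocampus arrays, but 15.7 ± 3.53 in high freezing and 15.97 ± 4.00 in low freezing amygdala arrays. The other averaged between 2.30 and 7.93 units over the 4 groups.

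Fah, the tyrosine-breakdown enzyme, was lower in high freezing animals. It had 254, 304 and 394 units as lowest, median and highest value in the high freezing amygdala, against 393, 449 and 477 in the low freezing amygdala. The groups touched through a single high array, number 12, which lay just above the lowest low array. In the hippocampus it had 171, 179 and 225 units in the high group and 226, 241 and 254 in the low group, with no overlap. The log2 differences were -0.49 ± 0.083 in the amygdala and -0.32 ± 0.083 in the hippocampus, or 1.40- and 1.25-fold lower.

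Thrsp, the fatty acid synthesis regulator, was also lower, at both of its kept probe sets. The brighter one had 182, 204 and 221 units in the high freezing amygdala, against 247, 256 and 302 in the low freezing amygdala. The other had 75.0, 105 and 118 units in the high freezing amygdala, against 123, 145 and 154 in the low freezing amygdala. Neither probe set overlapped between the groups, and the log2 differences were -0.36 ± 0.068 and -0.44 ± 0.11. In the hippocampus the brighter one had 351, 396 and 462 units in high freezing animals against 461, 501 and 512 in low freezing animals, where 1 high array, number 10, lay above the lowest low array. The dimmer one had 177, 205 and 272 units in the high freezing hippocampus, against 206, 257 and 288 in the low freezing one, which overlapped more widely. The differences there were -0.30 ± 0.068 and, for the dimmer probe set, -0.23 ± 0.11. The last probe set of Thrsp averaged between 5.62 and 10.7 units and was left out as dim.

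Me3, the malic enzyme, had the same 2 high freezing array numbers inside the low freezing range in both regions. In the high freezing amygdala it had 130, 181 and 297 units as lowest, median and highest value, against 224, 286 and 322 in the low freezing amygdala. In the high freezing hippocampus it had 225, 269 and 389 units, against 358, 391 and 434 in the low freezing hippocampus. Arrays 7 and 10 were the highest of their high freezing group in both regions, at 297 and 248 units in the amygdala and 389 and 375 in the hippocampus, and lay within the range of the low group each time. Equal numbers are not known to mark the same animals. Over the high freezing group, the correlation of Me3 between same-numbered arrays did not pass (exact permutation, adjusted p = 0.745). The log2 differences were -0.50 ± 0.14 in the amygdala and -0.42 ± 0.14 in the hippocampus.

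Eed, the Polycomb subunit, was lower in high freezing animals by small amounts. It had 289, 299 and 344 units in the high freezing amygdala, against 329, 378 and 409 in the low freezing amygdala, and 273, 282 and 319 units in the high freezing hippocampus, against 283, 337 and 388 in the low freezing hippocampus. The groups overlapped in both regions, and the log2 differences were -0.26 ± 0.075 and -0.19 ± 0.075. Its other probe set averaged between 13.7 and 22.8 units over the 4 groups and was left out as dim.

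The high freezing hippocampus arrays were not alike over the 7 genes. Taking each gene at its brightest probe set, array 10 was among the 2 high arrays closest to the low freezing mean for 6 of 7 genes and array 7 for 4 of 7. Arrays 9 and 11 were so for none. Closeness ignored direction: at Kctd14 array 10, at 37.4 units, lay below the low range, which began at 41.2. The genes share the scaling of each array, and no share over all probe sets was computed for these counts. At Myo7a, arrays 7 and 10 had 43.0 and 55.1 units, against 81.0 to 98.0 in the other 4 high arrays. At Fah they had 213 and 225 units, against 171 to 181, and at Thrsp 440 and 462, against 351 to 410. Prcp did not follow this order: arrays 7 and 10 had 53.9 and 54.0 units, the highest of the group, and array 12 had 28. In the amygdala arrays 7 and 9 were among the closest 2 for 5 genes each and array 11 for none. Arrays 7 and 10 of the hippocampus are not known to be from the same animals as those numbered 7 and 10 of the amygdala.

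**Figure D2:**
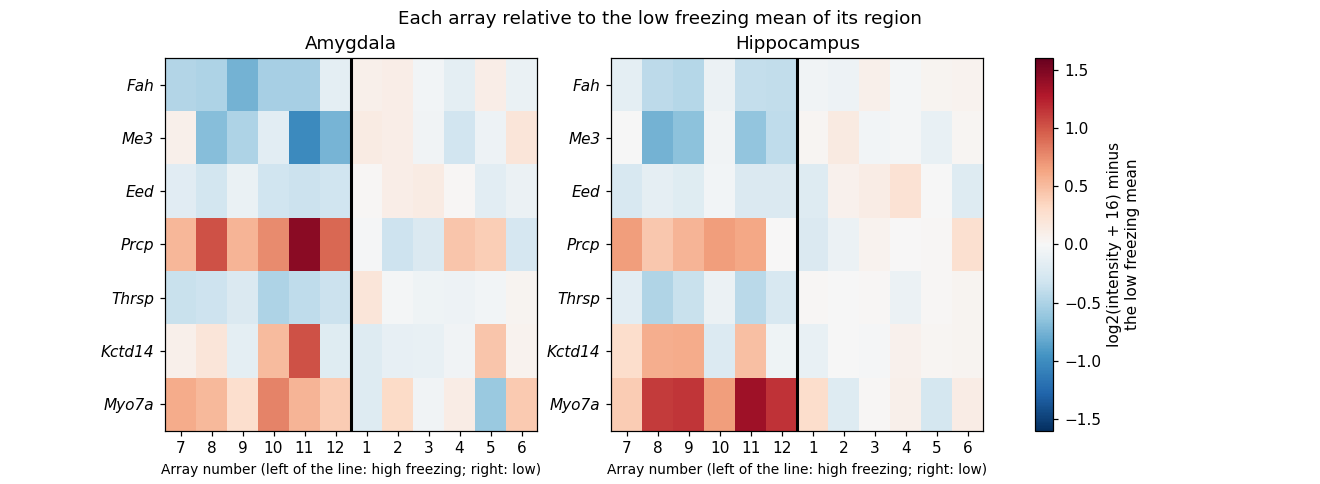
Each array's log2(intensity + 16) minus the low freezing mean of its region, for the brightest probe set of each gene; red is higher and blue lower than that mean, and the black line separates high (left) from low freezing arrays. In the hippocampus, arrays 7 and 10 are paler than the other high arrays at Me3, Thrsp and Myo7a, where array 10 stands at 0.67 and array 11 at 1.36 for Myo7a.

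Centred on the group means, which takes the group differences out, the 7 genes varied with each other across the 24 arrays in both directions. Thrsp and Kctd14 had r = -0.61, Prcp and Kctd14 r = 0.51, Thrsp and Myo7a r = -0.50, and Me3 and Thrsp r = 0.47. These values are descriptions, since the points share arrays and their scaling. The 3 genes most like each member on this measure, 21 in all, had r between 0.668 and 0.794. They were the highest among 12491 genes, so values of this size can arise by chance. Of the 21, 4 are on chromosome 7 and 1, Ccdc90b, lies between Fah and Myo7a. These counts were not set against the share of all genes. Ccdc90b was the gene most like Fah, with r = 0.79. Dnal1 was most like Me3 (r = 0.79), Arhgap39 most like Eed (r = 0.78), Brix1 most like Prcp (r = 0.78), Pnpla6 most like Thrsp (r = 0.72), Mplkip most like Kctd14 (r = 0.75) and Hpgds most like Myo7a (r = 0.75).

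Between Fah and Myo7a the RefSeq gene table lists 181 genes, both ends included, of which 80 code for proteins. A kept probe set was present for 40 genes, the 7 members and 33 others. Among the 33, 11 were higher and 22 lower in high freezing animals in the amygdala, and 17 were higher and 16 lower in the hippocampus. Of all genes, 49.3% were higher in the amygdala and 50.3% in the hippocampus. Their median size of difference was 0.080 in the amygdala and 0.082 in the hippocampus, against 0.084 and 0.091 over all 12491 genes. Ctsc was the only one of the 33 called in the amygdala, and none was called in the hippocampus by limma. Of all 12491 genes, 7 were called in the amygdala and 4 in the hippocampus.

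Ctsc, the gene of the lysosomal protease cathepsin C, lies between Fah and Me3 and had a larger difference than any member in the amygdala. It averaged 274 ± 83.1 units in the high freezing amygdala and 636 ± 166 units in low freezing animals (SD, 6 arrays each), a log2 difference of -1.17 ± 0.16. Only high array 7, at 389 units, reached the low range, which began at 359. In the hippocampus the difference was -0.55 ± 0.16, with no overlap between 120 to 178 units in the high and 185 to 239 in the low group. Next among the lower genes by the mean of both regions came Hikeshi, the neighbour of Eed and a carrier of heat shock proteins into the nucleus, at -0.18 ± 0.077 in each region, and Dlg2, the gene of the synaptic scaffold PSD-93, at -0.21 ± 0.084 in the amygdala and -0.11 ± 0.084 in the hippocampus. The highest were E230029C05Rik, next to Eed (0.18 ± 0.12 and 0.37 ± 0.12), the small GTPase gene Rab38 (0.089 ± 0.18 and 0.44 ± 0.18) and the protease gene Prss23 (-0.22 ± 0.21 and 0.47 ± 0.21), each in the order amygdala, hippocampus.

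The measured genes directly beside the members differed in size. Those beside Me3 and Eed, which are Prss23, Hikeshi and E230029C05Rik, are the ones just given, and each had a difference of about 0.18 or more in size in both regions. Zfand6, beside Fah, had log2 differences of 0.0045 ± 0.053 in the amygdala and 0.032 ± 0.053 in the hippocampus. Rab30 and Fam181b, on either side of Prcp, had -0.080 ± 0.085 and -0.088 ± 0.13 in the amygdala, and 0.054 ± 0.085 and -0.18 ± 0.13 in the hippocampus. Ndufc2, a subunit gene of respiratory complex I beside Thrsp, had 0.036 ± 0.051 and -0.010 ± 0.051, and Ints4, beside Kctd14, -0.020 ± 0.099 and -0.0026 ± 0.099. Aqp11, the measured gene before Myo7a, had 0.097 ± 0.13 and 0.12 ± 0.13. Capn5, a protease gene outside the stretch from Fah to Myo7a, had 0.15 ± 0.12 and -0.20 ± 0.12. The glutamate receptor gene Grm5 had 0.027 ± 0.090 and 0.059 ± 0.090. Tyr, the tyrosinase gene whose albino allele A/J carries, lies in the same stretch and was left out as dim, with means of 11.7 units in high freezing and 15.2 in low freezing amygdala arrays and 19.8 in high freezing and 12.8 in low freezing hippocampus arrays.

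**Figure D3:**
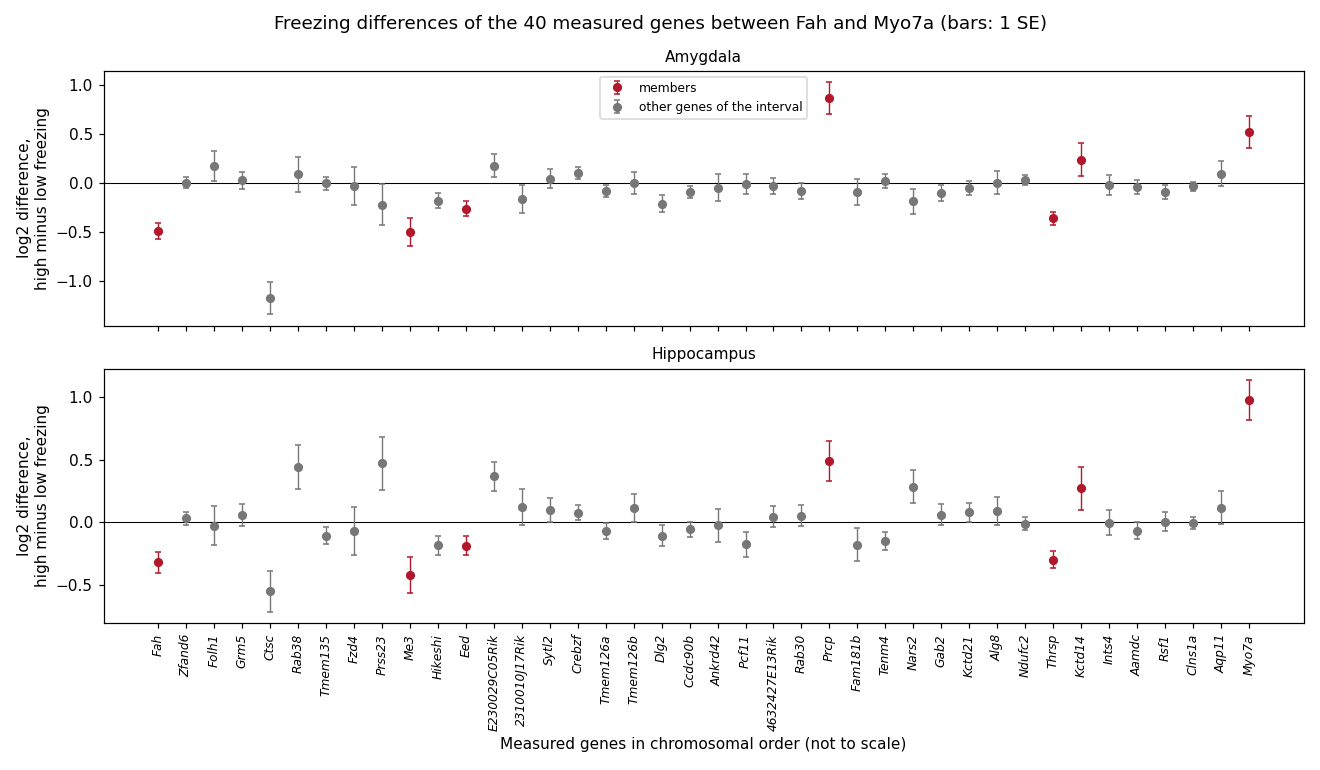
Log2 difference, high minus low freezing, of the 40 measured genes between Fah and Myo7a in chromosomal order (evenly spaced, not to scale), in the amygdala (top) and the hippocampus (bottom); red points are the 7 members, grey points the other genes, bars 1 SE. Members that are higher and members that are lower lie between other genes of either sign, with Hikeshi at -0.18 in both panels between Me3 and Eed, and Ctsc is the lowest point of both panels, at -1.17 and -0.55.

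Beside these freezing differences, the summed level of the 5 astrocyte markers was 8172 to 9211 units in high freezing and 9230 to 10052 in low freezing amygdala arrays, which did not overlap. In the hippocampus the same sums were 8556 to 9490 in the high and 8752 to 10816 in the low group, which overlapped. Gfap, 1 of the 5, averaged 477 units in high freezing and 849 in low freezing amygdala arrays. In hippocampus arrays Gfap averaged 269 units in high freezing and 486 in low freezing animals. In the high freezing amygdala Aqp4, Slc1a2, Slc1a3 and Aldh1l1 had lower means too. In the hippocampus Slc1a2 and Aldh1l1 were lower in high freezing animals. Slc1a3 averaged 1259 units in high freezing and 1119 in low freezing hippocampus arrays, and Aqp4 971 and 958, both higher. All 6 microglia markers had lower means in high freezing animals in both regions. Their sums were 3069 to 3633 units in high and 3167 to 4569 in low freezing amygdala arrays. In the hippocampus they were 2420 to 2817 in the high and 2524 to 3121 in the low group. Outside the astrocyte list, the sums of every marker list overlapped between the freezing groups in both regions. No background share was computed for such sums. All 5 markers of pigment cells were dim, and their sums overlapped between the freezing groups, with 34.9 to 99.1 units in high freezing and 37.7 to 74.9 in low freezing amygdala arrays. Of 4 hair cell markers 2 were dim, and the sums were 101.0 to 172 units in high freezing and 109 to 179.8 in low freezing amygdala arrays, and 61.6 to 109.9 in high freezing and 50.3 to 85.0 in low freezing hippocampus arrays. Otof, also on the basolateral amygdala list, made up most of the amygdala sums, at 108 units in high and 104 in low freezing arrays. Pou4f3, a transcription factor of hair cells, averaged between 2.88 and 6.08 units over the groups. The part of other cell types in the differences of the 7 genes was not tested.

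The comparison of the regions, which the choice of genes did not use, covered the same 10 probe sets. In limma 4 were higher in the amygdala, 3 were lower and 3 did not pass. Over all 27022 probe sets 51.4% passed, 27.2% higher and 24.2% lower, so a share of 7 in 10 is not far from the background. With arrays centred on their median, 5624 probe sets were higher and 8609 lower, against 7351 and 6535 on the scale used here.

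Thrsp differed most. Its brighter probe set fell to 233.0 ± 36.3 units across amygdala arrays, against 448 ± 58.6 across hippocampus arrays (SD, n = 12 each), and the dimmer one to 121 ± 25.7 against 232 ± 37.04. Every amygdala array stood below every hippocampus array at both, which was so in one direction or the other for 13.2% of all probe sets. The log2 differences were -0.90 ± 0.048 and -0.87 ± 0.075 (SE; limma adjusted p = 1.30e-15 and 5.83e-11). Me3 was lower as well, at 241 ± 64.8 units across amygdala and 344 ± 72.0 across hippocampus arrays, a log2 difference of -0.51 ± 0.10 (limma adjusted p = 0.000109).

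Fah was higher in the amygdala, at 376 ± 78.6 units against 216 ± 31.3 in the hippocampus (SD, n = 12 each), with a log2 difference of 0.75 ± 0.059 (limma adjusted p = 6.96e-12). The lowest Fah value of the amygdala was 254 units and the highest of the hippocampus 254.0, so the regions met at the edge. Myo7a was higher by 0.74 ± 0.11 (limma adjusted p = 2.32e-06), with 91.8 ± 26.2 units in amygdala and 51.4 ± 27.6 in hippocampus arrays. The ranges overlapped.

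The other 2 genes that passed did so narrowly. Prcp was higher in the amygdala at its brightest probe set by 0.33 ± 0.11 (54.3 ± 27.7 units against 37.3 ± 12.1 in the hippocampus, limma adjusted p = 0.0157). Its other kept probe set had a difference of 0.030 ± 0.13 (adjusted p = 0.866), so the probe sets of Prcp that matched each other in the freezing groups did not both pass between the regions. With arrays centred on their median the first no longer passed (adjusted p = 0.0556). Eed was higher by 0.13 ± 0.053 (342 ± 42.5 units against 309.7 ± 38.0, limma adjusted p = 0.0359). This call ended with arrays centred on their median (0.058 on the log2 scale, adjusted p = 0.391) and without the filter (adjusted p = 0.0508). It also ended on leaving out any 1 of 9 arrays, amygdala high 7 or 9, amygdala low 2 or 3, hippocampus high 7, 11 or 12, or hippocampus low 1 or 6 (adjusted p between 0.0518 and 0.0741). The kept probe sets of Kctd14 had differences of 0.14 ± 0.12 and -0.027 ± 0.10 that did not pass (adjusted p = 0.364 and 0.853).

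**Figure D4:**
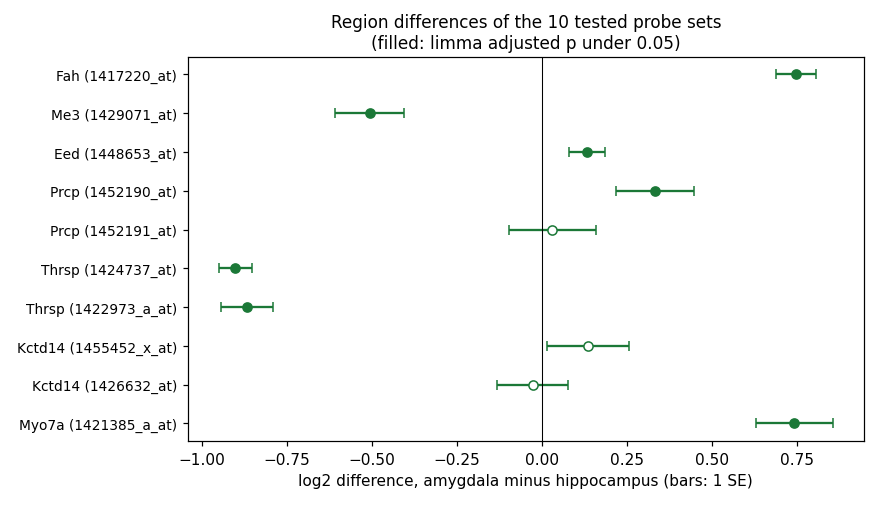
Log2 difference, amygdala minus hippocampus, of the 10 tested probe sets of the 7 genes, with probe set names in brackets; bars are 1 SE and filled points passed limma at an adjusted p of 0.05. Thrsp and Me3 lie left of 0 and Fah and Myo7a right of it by more than 0.5, while both Kctd14 probe sets are close to 0.

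The dissected samples also differed in cell type markers between the regions. The 6 choroid plexus markers summed to between 14302 and 20971 units in amygdala arrays and between 1909 and 13463 in hippocampus arrays, and the 5 measured oligodendrocyte markers to between 20406 and 28347 and between 9385 and 12874. The 4 excitatory neuron markers summed to between 193 and 531 units in amygdala arrays and between 2259 and 2877 in the hippocampus. Microglia markers, 6 of them, summed to between 3069 and 4569 units in amygdala arrays and between 2420 and 3121 in the hippocampus. The part of these cell types in the regional differences of the 7 genes was not tested.

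Genes related to the members by pathway, complex, family or enzyme class were set beside them in lists, at 1 probe set per gene. The background at that level was 56.4% of 12491 genes called, 31.8% higher in the amygdala and 24.6% lower, with a median log2 difference of 0.037. Of 11 measured genes of fatty acid synthesis and its regulators, 9 were higher and 2 lower in the amygdala (median 0.42), where Thrsp was lower. Scd1, a desaturase of fatty acids, was 3.48-fold higher (limma adjusted p = 1.33e-21), Srebf1, their master transcription factor, 2.05-fold (adjusted p = 3.17e-15) and Mid1ip1, the paralogue of Thrsp, 1.78-fold (adjusted p = 5.88e-16). The 2 lower ones were the thyroid hormone receptor genes, Thra at -0.61 ± 0.054 and Thrb at -0.31 ± 0.12. With arrays centred on their median 7 were higher and 2 lower.

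Of 10 genes of malic enzymes and the malate and citrate shuttles, 5 were higher in the amygdala and none lower (median 0.20), where Me3 was lower. They were led by Pcx, pyruvate carboxylase, at 1.57-fold and the citrate carrier Slc25a1 at 1.45-fold (limma adjusted p = 7.60e-13 and 1.59e-08). The dicarboxylate carrier Slc25a10 was 1.26-fold higher (adjusted p = 0.00632). The other malic enzyme of mitochondria, Me2, was also 1.26-fold higher (adjusted p = 6.12e-05), and the cytosolic Me1 had a log2 difference of -0.00084 (adjusted p = 0.992).

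Polycomb genes were divided: 4 of 10 were higher, among them the methyltransferase gene Ezh2 (1.35-fold) and Phf1 (1.21-fold), and 3 lower, among them Rbbp7 (1.23-fold). With arrays centred on their median 1 was higher and 3 were lower. In the list of prolyl peptidases and angiotensin and kinin genes, 6 of 10 were higher and 1 lower (median 0.34). Agt, the angiotensinogen gene, was 5.59-fold higher (limma adjusted p = 6.68e-18), and Fap and Ace, peptidases of the same list, were 2.73- and 2.64-fold higher. Usher proteins and unconventional myosins had 10 of 15 higher and 1 lower (median 0.23), in the direction of Myo7a. Myo1d was 2.76-fold and Myo1e 2.41-fold higher, and Adgrv1 2.32-fold, while the 1 lower gene was Myo5b, 2.25-fold. Of 15 Kctd genes 6 were higher and 6 lower (median 0.023, but -0.052 with arrays centred on their median, where 3 were higher and 6 lower), with Kctd4 at 3.20-fold lower and Kctd9 and Kctd8 at 1.95- and 1.87-fold higher. Of the tyrosine breakdown genes only Gstz1 was measured, and it did not pass (log2 difference -0.10, adjusted p = 0.327). In the freezing comparisons no gene of these 7 lists was called by limma in either region, where 7 of 12491 genes in the amygdala and 4 in the hippocampus were, and no list had a median above 0.1 in size in either region.

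**Figure D5:**
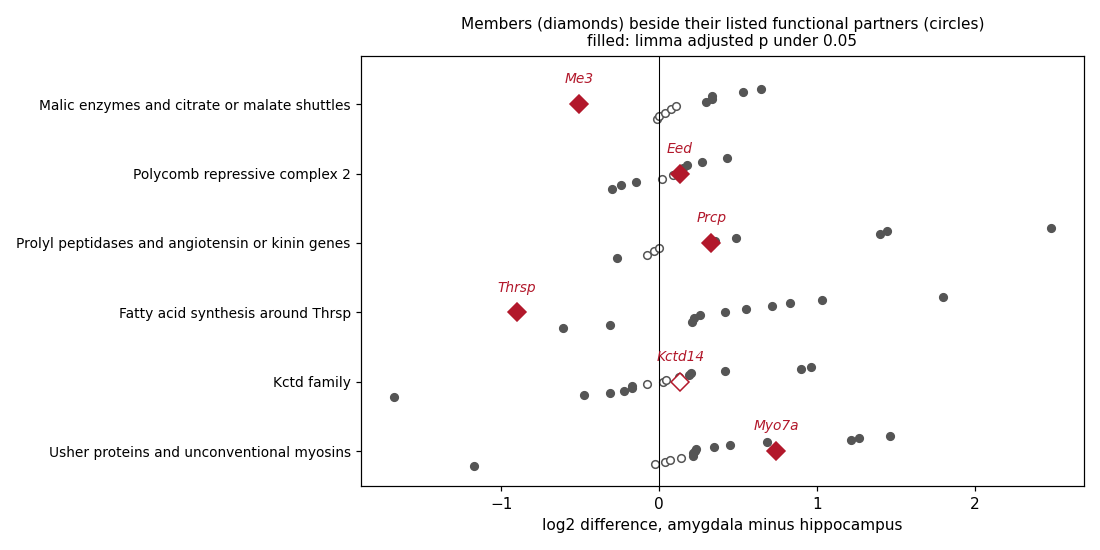
Log2 difference, amygdala minus hippocampus, of members (red diamonds) and the genes of the lists set beside them (grey circles), 1 row per list. Filled symbols passed limma at an adjusted p of 0.05. Thrsp at -0.90 and Me3 at -0.51 lie on the other side of 0 from most genes of their lists, while Myo7a at 0.74 lies among its own.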

How the data were processed

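The deposited table holds linear intensity, 1 value for each of 45101 probe sets on each of 24 Affymetrix arrays of 1 colour. How the scans were summarised is not stated in the labels. From the values alone, it appears that each array had been scaled to a mean of 150 without its top and bottom 2%. Array medians spanned 0.172 on the log2 scale, under the limit of 0.2 for a table taken as normalized, so values were tested as log2(intensity + 16) with no further normalization. The 64 control probe sets and the dimmest 40% by mean were left out, which left 27022.

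All arrays entered 1 fit in limma 3.58.1 (R 4.3.3) with a mean for each group, the variance prior following intensity. P-values were two-sided and adjusted by Benjamini-Hochberg over the kept probe sets, and the fit was tested on simulated data. Symbols came from the platform annotation, and the order of genes from RefSeq (GRCm38.p6). A gene outside the 7 was taken at its brightest kept probe set. The deposited table gives no detection calls.

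The 7 genes and the lists were chosen with earlier results of these data known. Named are all probe sets of the 7 genes. Of the interval, the genes beside each member, Ctsc, Tyr, Grm5 and Dlg2 are named, with the 3 highest and 3 lowest by the mean of both freezing differences. Capn5, outside the interval, is named as well. Per list up to 3 genes with the largest region difference are named, and per member the most similar of the 3 genes most like it. Me1, Me2, Thra, Thrb, Gstz1 and Myo5b were named after their values were seen. Alternatives were other offsets, quantile normalization, centring on the median, other filters, a prior without trend, each region alone, the array number as a block, and leaving out each array.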

Additional observations from a re-analysis of the deposited data

Results flagged for a closer look

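Of 40 groups of 6 arrays, 10 probe sets in 4 groups, 1 held an array that stood far from the others. At the brighter probe set of Kctd14, array 5 of the low freezing amygdala had 78.1 intensity units, while the other 5 arrays of that group lay between 43.98 and 56.2. The gap took up 0.641 of the group's range, above Dixon's critical value for 6 samples. Chance flags about 1 in 20 such groups.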

How the results depend on the processing

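The freezing differences of the 10 probe sets kept their sign under every alternative run (632 values, 0 changes of sign). The choice of genes favours this outcome. Leaving out an array of 1 region also cannot change the difference in the other region. Other filters, the prior without trend and each region alone return the differences of the main fit, so many of the 632 values could not differ. The sizes of the freezing differences moved with the offset: at Myo7a in the hippocampus 1.30 with an offset of 1 and 0.56 with 64. Between the regions, Fah, Me3, Thrsp and Myo7a passed under all alternatives that tested them, with 6 to 7 of the probe sets called on leaving out 1 array. The difference of the dimmer Prcp probe set, which never passed, was -0.012 with an offset of 1, -0.040 with quantile normalization and -0.045 with centring on the median, and ran from -0.021 to 0.097 on leaving out 1 array; the dimmer Kctd14 probe set ran from -0.067 to 0.014. The region count ran from 13580 to 13784 on leaving out 1 array.

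Limma calls between the freezing groups were few and unstable. In the hippocampus 14 probe sets were called, 9 with an offset of 1, 6 without the filter, 5 without trend, 22 with the region alone, and 0 to 33 on leaving out 1 array (0 without high array 11 or low array 5, where 2654 and 2707 had an unadjusted p under 0.05), with 0 to 2 of the members (0 without high 8 or 11 or low 5, 2 without high 7). In the amygdala 15 were called, 2 without trend, 0 with the region alone (2570 at an unadjusted p under 0.05), and 2 to 56 on leaving out 1 array (2 without low 1, 56 without low 6), with 0 to 5 of the members (0 without low 1, 5 without high 7). The members called there, 3, were 0 without trend and 0 with the region alone.

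Array numbers recur in both regions, and whether they pair the arrays was not settled. Same-numbered arrays correlated between -0.079 and 0.084 in their deviations from the group means, 0 of 12 above 0.1. Yet 5 of 12 were best matched by their own number, among 6 candidates each. With the replicate block 7 member probe sets were called, and 13814 in all. Of 14 correlations of a member between same-numbered arrays (2 groups of 6), 0 passed and 0 had an unadjusted exact permutation p under 0.05; the largest was Me3 in high freezing animals, Pearson's r = 0.82 and Spearman's rho = 0.54 (n = 6, exact permutation p = 0.0569 and 0.297, adjusted p = 0.745 and 0.83), and r was -0.14 without arrays 7 and 10.

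With 6 arrays per group, precision is limited at the dim end, where the kept probe sets of Prcp, Kctd14 and Myo7a lie. A probe set reads hybridisation, and whether alleles of the parental strains change the match of its probes was not tested.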

Other observations

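The neighbours of the 7 genes differed between the regions about as often as other genes did. Of the 33 other measured genes between Fah and Myo7a, 10 were higher and 7 lower in the amygdala in limma, against 31.8% and 24.6% of all genes, so the count says nothing particular to this stretch. Ctsc was higher by 1.17 ± 0.12 on the log2 scale (SE, limma adjusted p = 8.97e-10) and Ints4 by 0.42 ± 0.070 (adjusted p = 9.01e-06). Lower were Aqp11, a water channel gene, by -0.84 ± 0.093 (adjusted p = 8.03e-09) and Grm5, a metabotropic glutamate receptor gene, by -0.73 ± 0.063 (adjusted p = 5.12e-11). Grm5 had 1028 ± 185 and 1003 ± 131 units in the high and low freezing amygdala and 1718 ± 98.0 and 1649 ± 93.2 in the high and low freezing hippocampus (SD, n = 6 each).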
